A study of Homo sapiens with 20 samples.

Results

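RNA levels in WT Jurkat cells and in JinB8 cells were compared for how they changed between 1 and 6 h of culture. The comparison used every library given CD3_CD28, CD3_CD28_TSP1 or TSP1 at 1 h or 6 h, 12 of the 20 libraries of the series and 6 from each line. For each gene the change from 1 to 6 h in JinB8 was set against the change over the same interval in Jurkat. The log2 difference below is the JinB8 change minus the Jurkat change, so a positive value means that the RNA rose more, or fell less, in JinB8. The untreated (UT) library of each line was taken at 1 h only, and the 3 h libraries served to show in which interval a difference arose.

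Jurkat is a human T lymphoblast line from an acute leukemia. JinB8 is a somatic mutant of Jurkat that lacks CD47 at the cell surface, and CD47 is a receptor for the secreted protein thrombospondin-1 (TSP1). Before RNA was taken, cells of both lines were plated in a serum-free medium with insulin, transferrin, selenite and hydrocortisone. CD3_CD28 cells were plated on antibodies to CD3 and CD28, which engage the T cell receptor complex and its costimulatory receptor. TSP1 cells received 1 µg/ml TSP1 without antibodies, and CD3_CD28_TSP1 cells received both. JinB8 is a single mutant line, so absence of CD47 and any other difference between the lines cannot be told apart. Each line, treatment and time had 1 library, so the 3 treatments stood in for replicates and their spread includes any effect of treatment. Time since plating in the new medium and time with the treatment cannot be told apart at 6 h, where no untreated library was sequenced.

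Several programmes that respond quickly to the state of a cell give their names to gene lists used below, and their activity was not measured. Unfolded protein in the endoplasmic reticulum (ER) activates ATF6 and IRE1, which splices XBP1 mRNA, and the resulting factors raise ER chaperones such as HSPA5 (BiP). ATF4 is translated preferentially when amino acids are short or the ER is stressed, and it raises amino acid transporters and enzymes that make serine and asparagine. Immediate-early genes such as FOS and EGR1 are transcribed within minutes of receptor signalling and their RNAs decay rapidly, and cyclin B and its partners are made in G2 and mitosis.

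Promoters of the listed genes were read from RefSeq (GRCh38.p14), and 150 bases are shown for 7 genes picked because they hold the element through which the named programme is known to act. Capitals mark a match on either strand to the ER stress response element (CCAAT, then 9 bases of any kind, then CCACG) in HSPA5, HSP90B1 and XBP1, to the ATF4 element (TGATGNAA) in CHAC1 and ASNS, and to the cell cycle homology region (TTTGAA) in CCNB2 and PLK1. The stretches are, for HSPA5 chr9:125241344-125241493 on the minus strand, for HSP90B1 chr12:103930200-103930349 on the plus strand, for XBP1 chr22:28800570-28800719 on the minus strand, for CHAC1 chr15:40953246-40953395 on the plus strand, for ASNS chr7:97872409-97872558 on the minus strand, for CCNB2 chr15:59104996-59105145 on the plus strand and for PLK1 chr16:23678739-23678888 on the plus strand.
HSPA5: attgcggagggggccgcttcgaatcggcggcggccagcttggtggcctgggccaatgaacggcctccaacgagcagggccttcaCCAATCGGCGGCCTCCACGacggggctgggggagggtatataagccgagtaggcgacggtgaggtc
HSP90B1: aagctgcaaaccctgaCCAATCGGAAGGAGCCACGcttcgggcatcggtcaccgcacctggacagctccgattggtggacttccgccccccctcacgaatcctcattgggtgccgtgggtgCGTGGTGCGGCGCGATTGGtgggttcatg
XBP1: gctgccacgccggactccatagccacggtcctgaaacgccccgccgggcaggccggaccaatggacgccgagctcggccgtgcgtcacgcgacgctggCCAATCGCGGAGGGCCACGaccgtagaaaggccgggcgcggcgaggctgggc
CHAC1: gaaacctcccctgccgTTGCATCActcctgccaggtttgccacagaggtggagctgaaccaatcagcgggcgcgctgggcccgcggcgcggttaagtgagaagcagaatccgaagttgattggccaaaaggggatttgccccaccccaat
ASNS: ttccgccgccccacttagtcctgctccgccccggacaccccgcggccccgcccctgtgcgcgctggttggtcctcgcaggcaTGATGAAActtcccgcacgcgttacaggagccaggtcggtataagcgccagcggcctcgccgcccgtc
CCNB2: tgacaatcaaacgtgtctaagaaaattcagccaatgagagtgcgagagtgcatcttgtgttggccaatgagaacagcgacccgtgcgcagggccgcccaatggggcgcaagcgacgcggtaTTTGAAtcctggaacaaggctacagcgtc
PLK1: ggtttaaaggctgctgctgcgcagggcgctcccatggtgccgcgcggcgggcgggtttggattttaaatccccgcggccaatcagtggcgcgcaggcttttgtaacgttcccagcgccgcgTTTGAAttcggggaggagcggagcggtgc
Within 250 bases before and 50 after the start, the ER stress response element was found in 6 of the 20 matched promoters of the unfolded protein response list (30%) and in 22 of all 27305 promoters (0.0806%). The ATF4 element was found in 4 of 21 promoters of ATF4 targets (19%) and in 1003 of all promoters (3.67%). The cell cycle homology region was found in 16 of 26 promoters of the G2 and mitosis list (61.5%) and in 4212 of all promoters (15.4%). The cAMP response element (TGACGTCA) was found in 2 of 23 promoters of immediate-early genes (8.7%) and in 540 of all promoters (1.98%), and none of those is shown. In the stretches shown no match to one element overlaps a match to another, and a match is a string of letters, not a measured binding site. The starts used here are those of RefSeq, while the gene positions printed below are those of GENCODE. The HSP90B1 stretch therefore lies within the gene as printed below, and those of HSPA5 and CCNB2 overlap it in part.

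Totals of the 12 libraries ran from 22995477 to 31737616 estimated counts, and all 11 T lymphoblast markers were above 1 CPM (counts scaled to library size) on average. Of the markers of other cell types 0 of 6 epithelial, 1 of 6 myeloid, 2 of 6 fibroblast and 3 of 6 B cell genes passed 1 CPM. The B cell markers summed to 42.9 to 58.1 CPM in Jurkat and 8.07 to 14.3 CPM in JinB8, mostly CD79A, while MS4A1 and PAX5 lay near 0, and their part in the results was not tested. Among the libraries at 3 h, that of JinB8 with CD3_CD28_TSP1 stood apart, with 16107921 counts and 5.35% of counts in ribosomal protein genes, against 20483642 to 31737616 counts and 7.02 to 8.78% in the other 19 libraries. Values printed below for the intervals that end or begin at 3 h are given with and without it. CD47 itself, on chromosome 3 (108043091 to 108091862, minus strand), stood at 355.5 ± 19.9 CPM in Jurkat at 1 h and 306.3 ± 16.7 at 6 h (SD, n = 3). In JinB8 CD47 RNA stood at 159.4 ± 6.21 and 143.4 ± 2.68 CPM, present but lower in every library than in any Jurkat library. The CD47 log2 difference was 0.02 (SE 0.07, edgeR adjusted p = 0.85).

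Of 17558 genes tested, 4507 changed differently between 1 and 6 h in the 2 lines (25.7%; edgeR quasi-likelihood test, Benjamini-Hochberg adjusted). The log2 difference was positive for 1779 of them (10.1% of genes tested) and negative for 2728 (15.5%). That split depended on scaling: with upper-quartile factors 2337 were positive and 2115 negative, and with library totals alone 1344 and 2956. The count itself fell to 2573 when the spread was estimated over all 20 libraries, and to 2968 when TSP1 without antibodies was left out (1722 negative). Without the JinB8 CD3_CD28 library at 1 h the negative count was 1721. The median log2 difference over all genes was -0.0042, and among the genes called its median size was 0.49. In 4447 of the 4507 genes the sign was the same under all 3 treatments, which the test itself favours because the treatments served as its replicates.

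The difference was one between 2 large responses. In Jurkat 9604 genes changed from 1 to 6 h (54.7%), 4886 up (27.8%) and 4718 down (26.9%). In JinB8 9949 changed (56.7%), 4880 up (27.8%) and 5069 down (28.9%). Most genes with a line difference were not moving in opposite directions. A change in the same direction but of different size was found for 1767 of the 4507, a change called in Jurkat alone for 1049 and in JinB8 alone for 1157. The remaining genes were 485 with opposite changes, of which 316 rose in Jurkat and fell in JinB8, and 49 called in neither line.

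**Figure D1:**
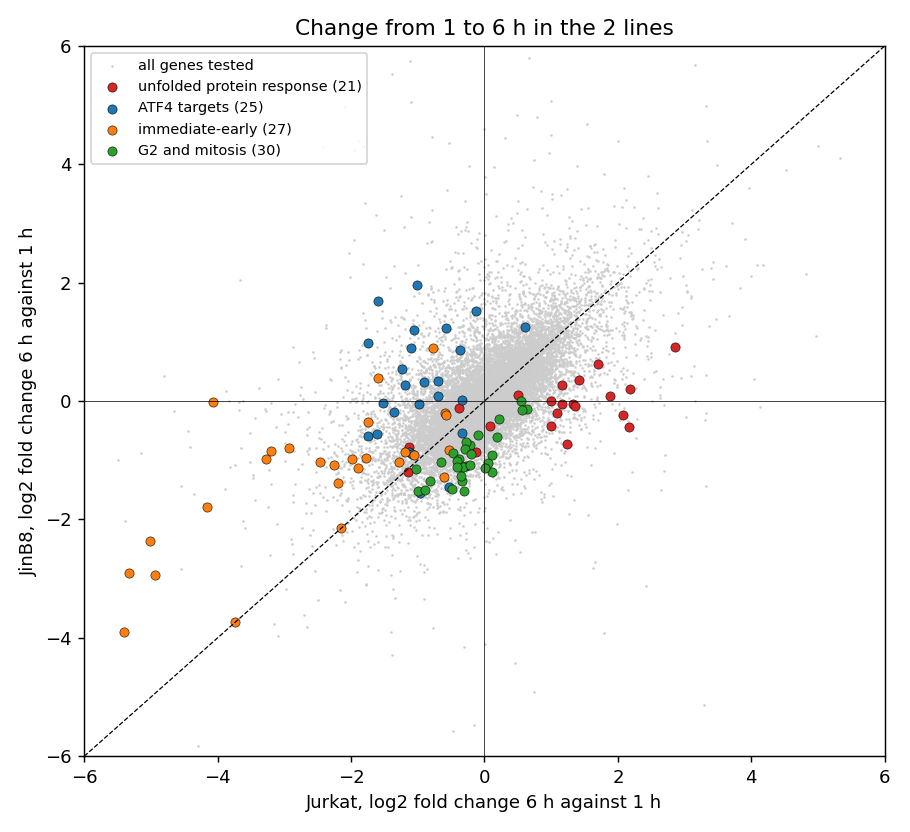
Log2 fold change from 1 to 6 h in Jurkat (x axis) against the same change in JinB8 (y axis), 1 point per gene; grey points are all genes tested, coloured points are members of 4 gene lists, and the dashed line marks equal change. Most unfolded protein response genes lie below the line at positive Jurkat values. ATF4 targets and immediate-early genes lie mostly above the line at negative Jurkat values, and G2 and mitosis genes lie just below it. Another 12 genes fall outside the axes.

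The ER chaperones rose in Jurkat and did not rise, or rose less, in JinB8. Of 21 unfolded protein response genes, 18 had a negative log2 difference and 2 a positive one, against 15.5% and 10.1% of all genes. The median log2 difference of the list was -1.21, made of a median change of 1.16 in Jurkat and -0.09 in JinB8. In Jurkat 16 of the 21 rose and 3 fell, and in JinB8 5 rose and 9 fell, against 27.8% up and 26.9% down over all genes in Jurkat and 27.8% and 28.9% in JinB8. The 5 of 21 that rose in JinB8 are near that share. The list median was -1.17 under CD3_CD28, -1.13 under CD3_CD28_TSP1 and -1.10 under TSP1.

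HSPA5, the main HSP70 chaperone of the ER lumen (chromosome 9, 125234853 to 125241382, minus strand), stood in Jurkat at 187, 182 and 170 CPM at 1 h with CD3_CD28, CD3_CD28_TSP1 and TSP1. At 6 h the same treatments gave 713, 813 and 706 CPM. In JinB8 the 1 h libraries held 293, 293 and 272 CPM and the 6 h libraries 242, 255 and 246 CPM. JinB8 was thus the higher line at 1 h and Jurkat the higher at 6 h, with no overlap at either time. The log2 difference was -2.30 (SE 0.08, adjusted p = 5.53e-12). Untreated libraries at 1 h held 170 CPM in Jurkat and 272 CPM in JinB8, so the 1 h gap was present without treatment.

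HSP90B1, the ER member of the HSP90 family (chromosome 12, 103930107 to 103953931, plus strand), went from 442, 392 and 417 CPM in Jurkat at 1 h to 1829, 1905 and 1808 CPM at 6 h. In JinB8 it went from 593, 564 and 556 to 433, 405 and 442 CPM. Every Jurkat library at 6 h was above 1800 CPM while JinB8 fell, and the log2 difference was -2.61 (SE 0.08, adjusted p = 2.45e-12). XBP1, the transcription factor whose mRNA IRE1 splices, rose in Jurkat from 78.6, 75.2 and 74.8 CPM to 176, 180 and 174 CPM. In JinB8 XBP1 fell from 172, 162 and 157 CPM to 99.5, 98.4 and 102 CPM. The 2 lines exchanged places for XBP1, with a log2 difference of -1.97 (SE 0.07, adjusted p = 6.18e-12).

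MANF and SDF2L1, small ER luminal proteins, rose in both lines but by different amounts. MANF reached 180, 190 and 180 CPM in Jurkat at 6 h from 41.1, 41.9 and 39.6 CPM, and in JinB8 67.1, 66.0 and 67.0 CPM from 59.0, 57.4 and 55.9 CPM, a log2 difference of -1.99. SDF2L1 went from 5.01, 7.57 and 6.18 CPM to 45.9, 45.9 and 41.4 CPM in Jurkat and from 7.98, 9.96 and 6.98 CPM to 14.6, 16.9 and 15.7 CPM in JinB8, a log2 difference of -1.94. The disulfide isomerases that fold ER proteins rose in Jurkat, with log2 differences of -1.79 for PDIA4, -1.37 for PDIA6 and -1.21 for PDIA3. The lectin chaperones CALR and CANX had -1.06 and -0.99, and SEL1L, which takes part in ER-associated degradation, had -1.28. None of PDIA4, PDIA6, PDIA3 and CANX passed the test for a change in JinB8 alone.

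DNAJB9 and ATF6 differed from the chaperones in that JinB8 fell and Jurkat did not pass the test. DNAJB9, an ER co-chaperone, had a Jurkat change of -0.13 and fell by 0.85 in JinB8 on the log2 scale. The exceptions to the list from 1 to 6 h were HERPUD1, ERN1 and EDEM1. HERPUD1, an ER-associated degradation component, had a positive log2 difference of 0.27 (adjusted p = 0.031) and ERN1, which encodes IRE1, one of 0.35 (adjusted p = 0.034). Both calls were lost in 12 of the 21 alternatives, left-out libraries included. EDEM1 had -0.05 (adjusted p = 0.65), having fallen by 1.14 in Jurkat and 1.2 in JinB8.

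**Figure D2:**
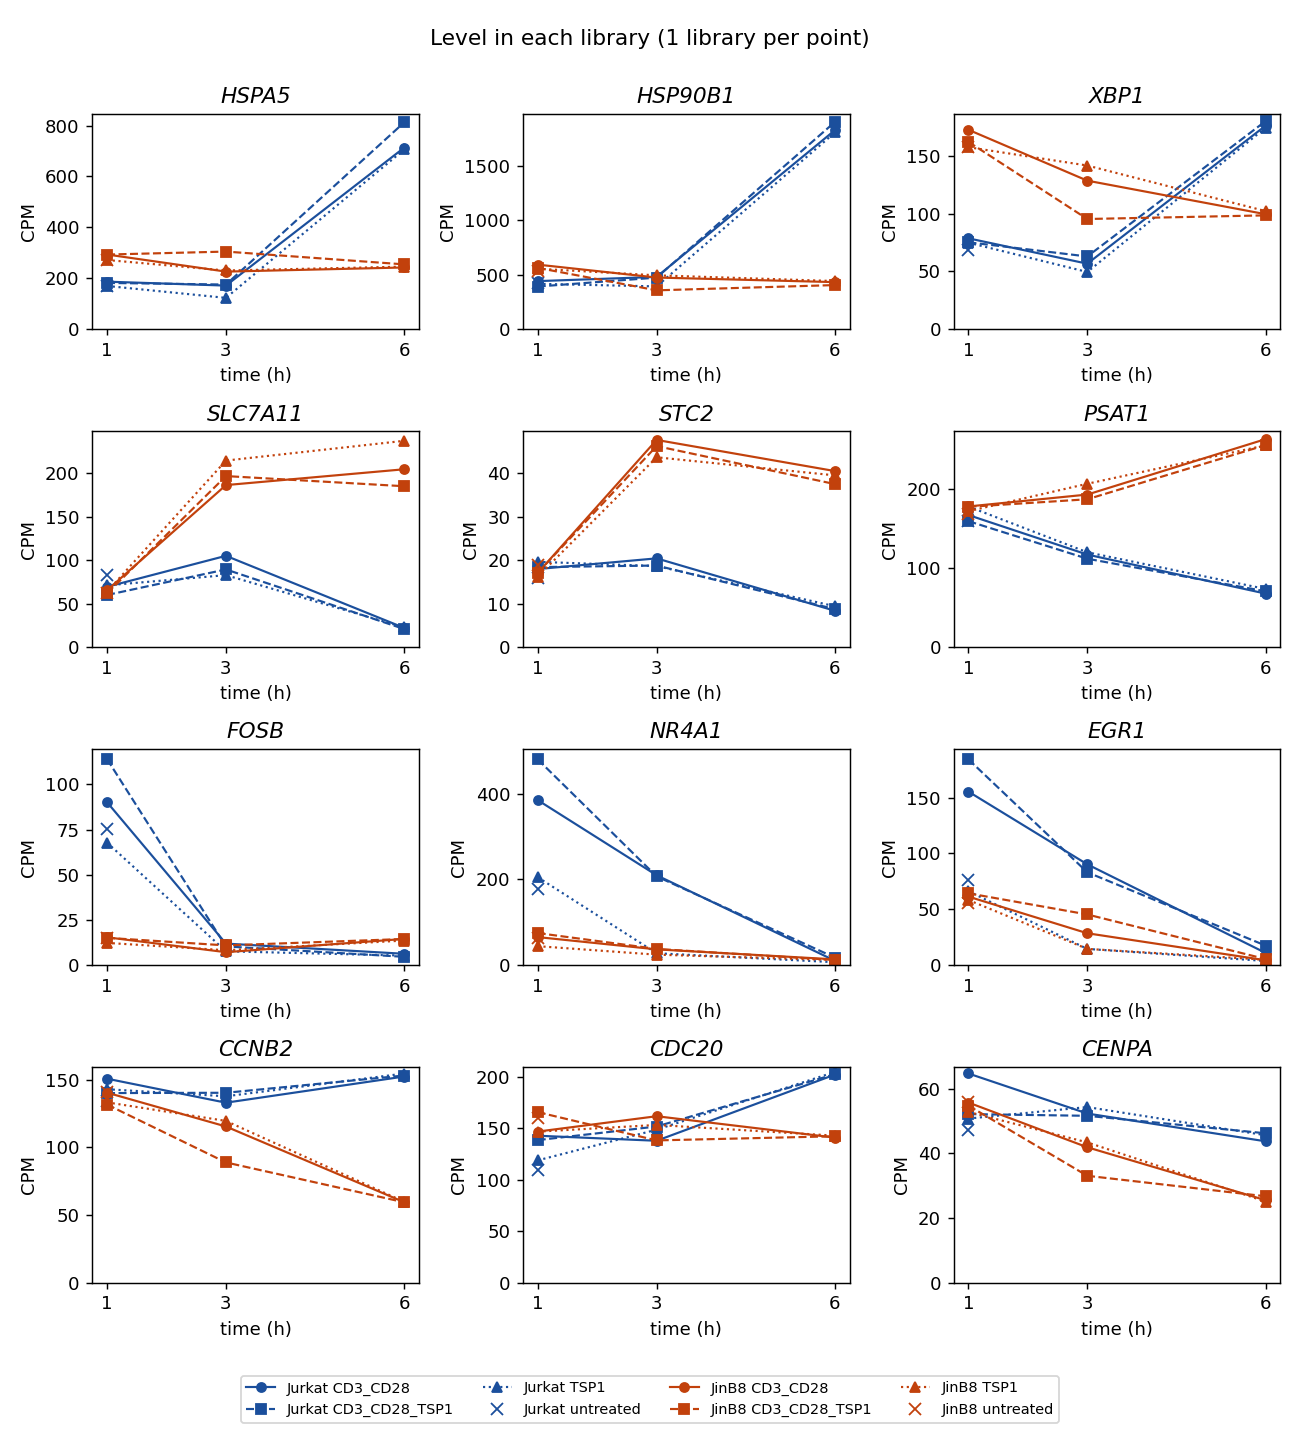
Level in CPM (y axis, from 0) against time in h (x axis) for 12 genes, 3 each from the unfolded protein response, the ATF4 targets, the immediate-early genes and the G2 and mitosis genes. Each point is 1 library, colours are lines, markers and line styles are treatments and crosses are untreated libraries; HSPA5 in Jurkat stayed at or below 187 CPM to 3 h and stood above 700 CPM at 6 h.

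Most ATF4 targets fell in Jurkat, and in JinB8 more of them rose than fell. Of the 26 genes on the list 25 were tested (NUPR1 was not), and 20 had a positive log2 difference and 2 a negative one, against 10.1% and 15.5% of all genes. The median log2 difference was 1.17, from a median change of -1.01 in Jurkat and 0.27 in JinB8. In Jurkat 22 fell and 1 rose, against 26.9% and 27.8% of all genes. In JinB8 13 rose and 7 fell, against 27.8% and 28.9% of all genes, the 7 being near that share. The list median was 1.26 under CD3_CD28, 1.14 under CD3_CD28_TSP1 and 1.08 under TSP1.

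Amino acid transporters were among the targets with a positive difference. SLC7A11, the cystine-glutamate exchanger (chromosome 4, 138164097 to 138242349, minus strand), stood in Jurkat at 69.4, 60.0 and 71.1 CPM at 1 h and at 22, 20.7 and 22.5 CPM at 6 h. In JinB8 it stood at 65.4, 61.8 and 63.8 CPM at 1 h and at 205, 185 and 238 CPM at 6 h. The lines overlapped at 1 h and were far apart at 6 h. The log2 difference of SLC7A11 was 3.28 (SE 0.09, adjusted p = 2.01e-13), from a change of -1.59 in Jurkat and 1.69 in JinB8.

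The partner subunit of SLC7A11, SLC3A2, fell from 255, 269 and 227 CPM to 168, 162 and 162 CPM in Jurkat and rose from 156, 168 and 144 CPM to 360, 380 and 368 CPM in JinB8, a log2 difference of 1.81. SLC7A5, which pairs with SLC3A2 to import large neutral amino acids, had 1.65, and its Jurkat change of -0.13 did not pass the test (adjusted p = 0.055). The glutamine carrier SLC1A5 had a log2 difference of 2.01 and the cationic amino acid carrier SLC7A1 one of 1.24. SLC6A9, a glycine transporter, had 2.96, but from levels of only 1.01 to 1.77 CPM in Jurkat at 1 h.

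The list also holds enzymes of serine and one-carbon metabolism. PSAT1, which makes phosphoserine, went from 167, 159 and 178 CPM to 67.6, 70.5 and 73.5 CPM in Jurkat and from 178, 177 and 172 CPM to 263, 255 and 255 CPM in JinB8. Its log2 difference was 1.76 (SE 0.07, adjusted p = 1.8e-11). PHGDH, SHMT2 and MTHFD2 had 1.22, 1.04 and 1.49. PSPH rose in both lines, by 0.60 in Jurkat and 1.25 in JinB8 on the log2 scale. Asparagine synthetase, ASNS, fell in both, and by more in Jurkat, with a log2 difference of 1.16.

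STC2, a secreted glycoprotein and a known ATF4 target, went from 18, 18.4 and 19.6 CPM to 8.35, 8.73 and 9.40 CPM in Jurkat and from 17.1, 17.1 and 16.2 CPM to 40.5, 37.5 and 39.6 CPM in JinB8. The direction was opposite in the 2 lines and the log2 difference was 2.26 (SE 0.11, adjusted p = 7.31e-10). CHAC1, which degrades glutathione, had 2.71 and PCK2, the mitochondrial phosphoenolpyruvate carboxykinase and no member of the list, 2.65. ATF4 RNA fell in Jurkat from 899, 814 and 705 CPM to 391, 403 and 401 CPM. In JinB8 ATF4 stood at 677, 680 and 667 CPM at 1 h and 645, 667 and 677 CPM at 6 h, and its log2 difference was 0.94 (adjusted p = 1.3e-06).

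The 2 members with a negative difference were DDIT3 (CHOP) and TRIB3, a transcription factor and a pseudokinase induced late in ER stress. DDIT3 fell from 72.0, 54.7 and 40.5 CPM to 35.9, 39.6 and 36.3 CPM in Jurkat and from 49.4, 49.2 and 49.7 CPM to 19.2, 18.6 and 17.3 CPM in JinB8. Its log2 difference was -0.92 (adjusted p = 0.02), a call lost in 8 of the alternatives. TRIB3 was the more abundant in JinB8 at 1 h (171, 177 and 161 CPM against 48.3, 51.0 and 51.3 CPM) and fell to 56.5, 61.7 and 57.6 CPM there, with a log2 difference of -0.59. DDIT4, SLC38A2 and ALDH1L2 did not pass the test.

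**Figure D3:**
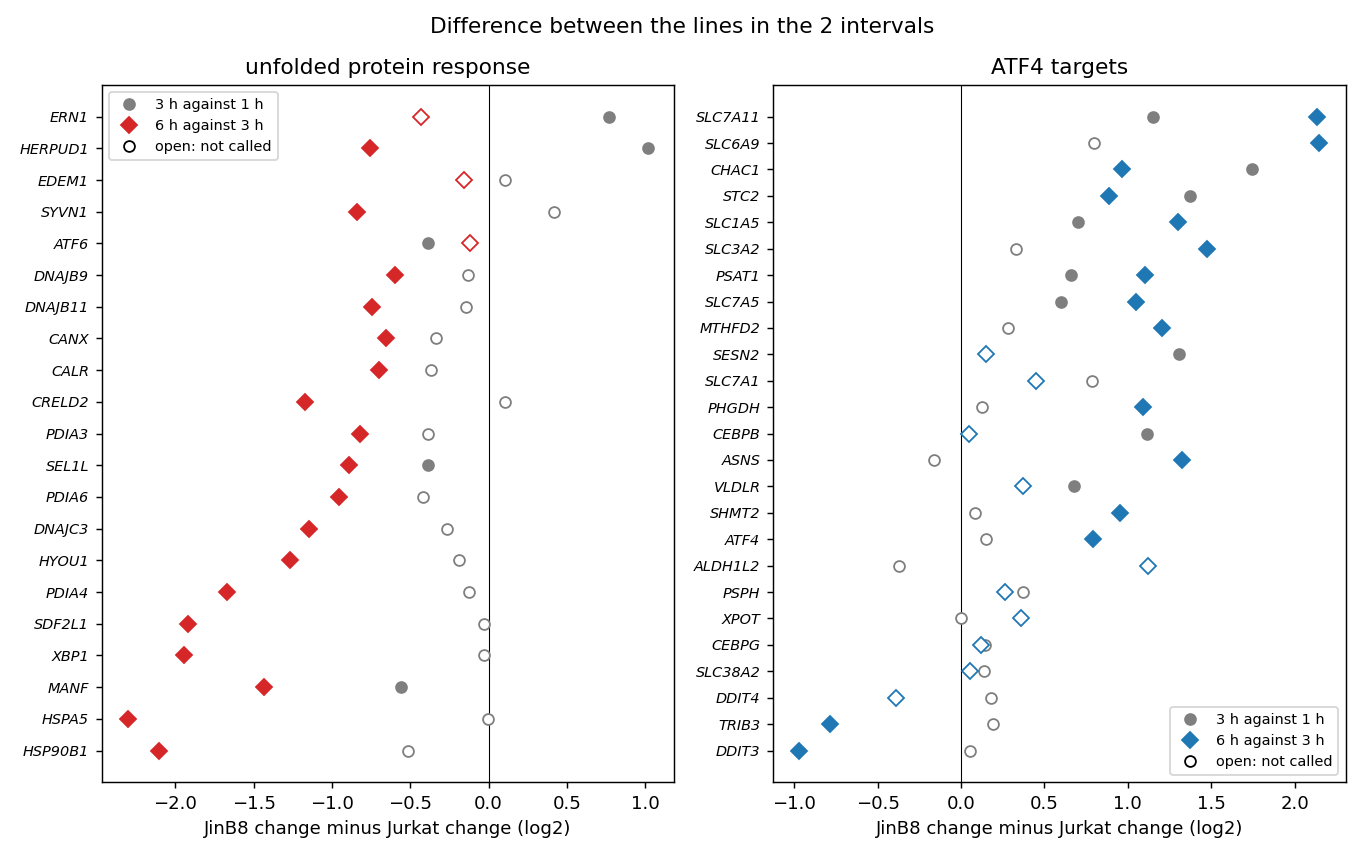
Log2 difference between the lines (x axis, JinB8 change minus Jurkat change) for each unfolded protein response gene (left) and each ATF4 target (right). Grey circles are 3 h against 1 h, coloured diamonds 6 h against 3 h, and open symbols did not pass the test; most unfolded protein response genes have their difference in the later interval, 18 of 21 being called there.

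The difference was also divided into 2 intervals. Between 1 and 3 h 634 of 18263 genes had a line difference (3.47%), 313 positive (1.71%) and 321 negative (1.76%). Between 3 and 6 h 1648 did (9.02%), 636 positive (3.48%) and 1012 negative (5.54%). Both intervals use the same 3 h libraries, and the second was examined after the 3 h values had been seen. The earlier split became 635 positive and 274 negative without Jurkat CD3_CD28 at 1 h, and 965 and 440 with no low-count filter. Without the JinB8 CD3_CD28_TSP1 library at 3 h the counts were 1061 and 2486. Leaving out other single libraries took the earlier count as low as 186 and the later one as low as 736, so the counts at 3 h are loosely determined.

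Of the 21 unfolded protein response genes, 3 had a negative and 2 a positive difference by 3 h, and 18 had a negative one between 3 and 6 h, against 1.76%, 1.71% and 5.54% of all genes. Without the library that stood apart the 3 by 3 h became 5 and the 18 stayed 18. The negative counts over all 18638 genes were then 546 by 3 h and 1640 from 3 to 6 h. HSPA5 stood at 171, 175 and 123 CPM in Jurkat and 226, 305 and 231 CPM in JinB8 at 3 h. Its log2 difference was -0.0012 to 3 h (adjusted p = 1.00) and -2.30 from 3 to 6 h (adjusted p = 1.59e-07), or -0.12 and -2.19 without the library that stood apart. HSP90B1 had -0.51 to 3 h (adjusted p = 0.057, and -0.38 with adjusted p = 0.021 without the library that stood apart) and -2.10 from 3 to 6 h (-2.23 without it). XBP1 had -0.03 and -1.94, or 0.13 and -2.10 without it. HERPUD1, positive from 1 to 6 h, had 1.02 to 3 h and -0.76 from 3 to 6 h, or 1.08 and -0.82 without that library. HERPUD1 was thus among the 18 called negative between 3 and 6 h. ATF6, negative from 1 to 6 h, was not among them (-0.12, or -0.13 without that library).

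Of the 25 ATF4 targets, 9 had a positive difference by 3 h and none a negative one, and 13 had a positive and 2 a negative one between 3 and 6 h. Over all genes 1.71% were positive by 3 h, and 3.48% positive and 5.54% negative afterwards. Without the library that stood apart these were 13 by 3 h, and 16 positive and 3 negative afterwards. The counts over all 18638 genes rose too, to 515 positive by 3 h, and to 846 positive and 1640 negative afterwards. SLC7A11 reached 187, 197 and 215 CPM in JinB8 at 3 h against 105, 89.4 and 82.8 CPM in Jurkat, with log2 differences of 1.15 to 3 h (adjusted p = 6.93e-05) and 2.13 from 3 to 6 h (adjusted p = 1.14e-07), or 1.11 and 2.17 without that library. STC2 in JinB8 was highest at 3 h, at 47.7, 46.3 and 43.7 CPM, and its log2 differences were 1.37 and 0.88, or 1.37 and 0.89 without that library. SESN2, a stress-induced regulator of mTORC1, had 1.31 to 3 h and 0.15 afterwards (adjusted p = 0.59), or 1.34 and 0.11 without that library.

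Immediate-early RNAs fell in Jurkat, and many of them fell less in JinB8. On average over the 3 treatments, 3 of the 27 tested were higher in JinB8 than in Jurkat at 1 h. All 27 immediate-early genes tested, of 28 on the list, fell in Jurkat. In JinB8 21 fell and 1 rose. Over all genes 26.9% fell in Jurkat and 28.9% in JinB8, and 27.8% rose in each line. The log2 difference was positive for 16 and negative for 2, against 10.1% and 15.5% of all genes, with a median of 1.17, from a median change of -2.15 in Jurkat and -0.98 in JinB8. The list median was 1.09 under CD3_CD28, 1.27 under CD3_CD28_TSP1 and 1.01 under TSP1.

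FOSB, a partner of JUN in AP-1 (chromosome 19, 45467995 to 45475179, plus strand), stood in Jurkat at 90.2, 114 and 67.7 CPM at 1 h and at 6.14, 4.48 and 5.15 CPM at 6 h. In JinB8 it stood at 15.3, 15 and 12.2 CPM and then 14.4, 14.4 and 13.5 CPM, a change of -0.02 that did not pass the test (adjusted p = 0.92). The lines did not overlap at either time, Jurkat being higher at 1 h and JinB8 at 6 h, and the log2 difference was 4.05 (SE 0.24, adjusted p = 1.75e-05). The untreated library of Jurkat already held 75.5 CPM of FOSB at 1 h, and that of JinB8 14.9 CPM.

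NR4A1, a nuclear receptor induced by T cell receptor signalling, was at 386, 481 and 205 CPM in Jurkat at 1 h and 65.1, 74.6 and 43.8 CPM in JinB8. At 6 h it was at 9.69, 17 and 6.25 CPM in Jurkat and 12.9, 11.4 and 11.5 CPM in JinB8, so the groups overlapped at 6 h and the log2 difference of 2.66 (adjusted p = 0.0012) rested on the 1 h levels. FOS had 2.30, ATF3 2.35, EGR4 2.43, NR4A3 2.37 and EGR3 2.01, in each case with a fall in both lines. EGR1 had a log2 difference of 0.01 (SE 0.24, adjusted p = 0.99), with falls of 3.74 in Jurkat and 3.73 in JinB8 on the log2 scale. It stood at 155, 184 and 66.1 CPM in Jurkat and 61.3, 64.2 and 58.2 CPM in JinB8 at 1 h.

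KLF4 was the immediate-early member that rose in JinB8, by 0.89, while it fell by 0.77 in Jurkat. The 2 with a negative difference were KLF6 (-0.30), a call lost in 18 of the 21 alternatives, and BTG2 (-0.68), an antiproliferative gene. Of 13 feedback inhibitors of ERK signalling 9 had a positive log2 difference and none a negative one (all genes 10.1% and 15.5%), with a median of 0.72. SPRY4, a Sprouty inhibitor of receptor signalling, fell from 53.3, 56.8 and 28.8 CPM to 3.33, 6.61 and 2.52 CPM in Jurkat and from 12.5, 13.6 and 10.8 CPM to 5.03, 5.76 and 4.41 CPM in JinB8. The dual-specificity phosphatase DUSP5 had 1.76 and DUSP6 -0.10 (adjusted p = 0.82).

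RNAs of G2 and mitosis fell more in JinB8 than in Jurkat. Of 30 genes on the list 29 had a negative log2 difference and none a positive one, against 15.5% and 10.1% of all genes, with a median of -0.70, from a median change of -0.29 in Jurkat and -1.04 in JinB8. In Jurkat 20 fell and 6 rose, and in JinB8 28 fell and none rose. Of all genes 26.9% fell in Jurkat and 28.9% in JinB8, and 27.8% rose in each line. The list median was -0.56 under CD3_CD28, -0.73 under CD3_CD28_TSP1 and -0.61 under TSP1. Of 28 S phase genes 3 had a positive and 4 a negative difference, shares close to the 10.1% and 15.5% of all genes, with a median of 0.05. The negative count was 2 without Jurkat CD3_CD28_TSP1 at 1 h or 6 h, JinB8 CD3_CD28 or TSP1 at 1 h, or JinB8 CD3_CD28 or CD3_CD28_TSP1 at 6 h, and also with upper-quartile factors, all 20 libraries or activated libraries only.

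CCNB2, a mitotic cyclin (chromosome 15, 59105126 to 59125045, plus strand), stood in Jurkat at 151, 140 and 143 CPM at 1 h and 152, 153 and 154 CPM at 6 h. In JinB8 it fell from 140, 132 and 133 CPM to 59.4, 59.4 and 59.8 CPM. The lines overlapped at 1 h and were separate at 6 h, with a log2 difference of -1.31 (SE 0.07, adjusted p = 8.73e-10). CDC20, which activates the anaphase-promoting complex, rose in Jurkat from 143, 138 and 119 CPM to 202, 202 and 205 CPM, a log2 difference of -0.76. In JinB8 CDC20 stood at 147, 166 and 147 CPM and then at 141, 142 and 143 CPM, a change that did not pass the test (adjusted p = 0.073).

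Other large differences in the list were -1.22 for DLGAP5, -1.13 for HMMR, -1.10 for the checkpoint kinase BUB1 and -1.03 for the kinesin KIF20A. PLK1, the mitotic kinase, rose by 0.56 in Jurkat and fell by 0.15 in JinB8. TOP2A, topoisomerase II alpha, fell from 1028, 957 and 1014 CPM to 482, 452 and 512 CPM in JinB8 and from 1610, 1340 and 1474 CPM to 1248, 1233 and 1273 CPM in Jurkat. KIF23, a kinesin of the midbody, was the member that did not pass the test (-0.13, adjusted p = 0.25). Of the list 5 had a negative difference by 3 h and 15 between 3 and 6 h, against 1.76% and 5.54% of all genes. The 15 became 28 without the library that stood apart, where the count over all genes also rose.

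**Figure D4:**
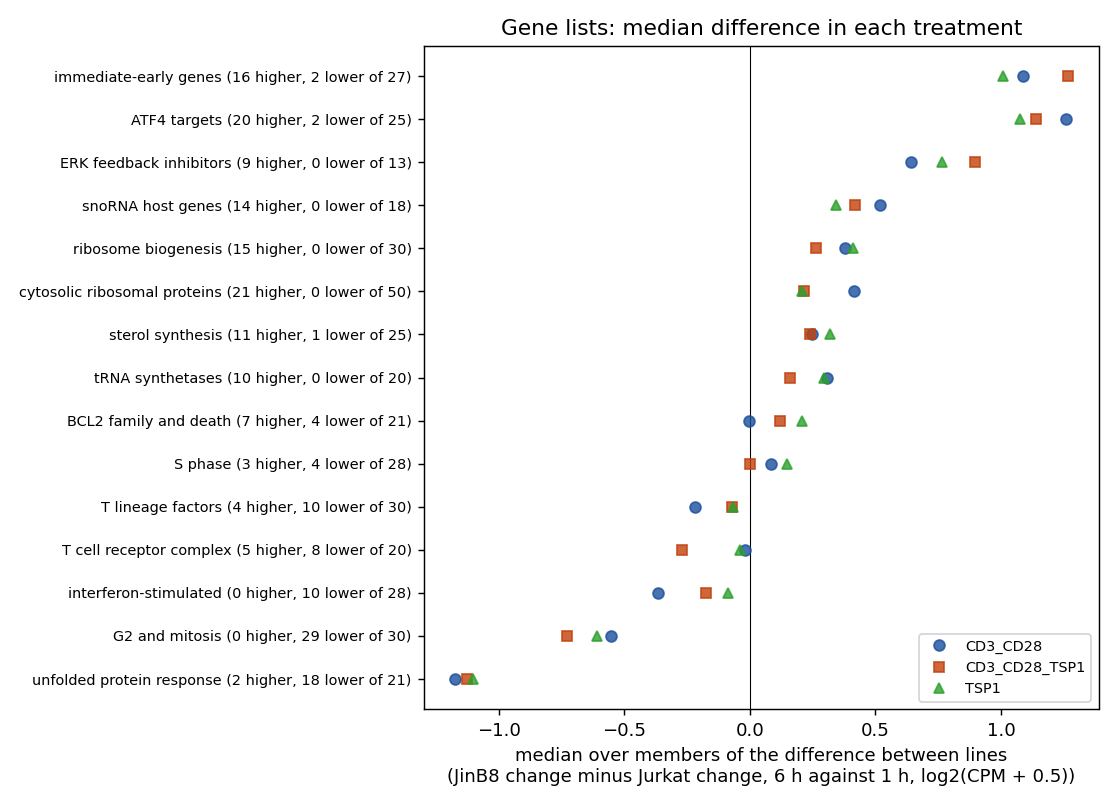
Median over the members of each of 15 gene lists (y axis, with the numbers called higher and lower in JinB8) of the difference between the lines in the change from 1 to 6 h (x axis, JinB8 minus Jurkat, log2(CPM + 0.5)), 1 symbol per treatment. The unfolded protein response and the G2 and mitosis genes lie on the negative side, and the ATF4 targets and immediate-early genes on the positive side, under all 3 treatments.

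Line differences in RNAs for ribosome production were positive where they passed the test. Of 30 ribosome biogenesis genes 15 had a positive log2 difference and none a negative one, with a median of 0.27 (all genes 10.1% and 15.5%), and 26 rose in Jurkat and 29 in JinB8, against 27.8% of all genes in each line. NOP56, a core protein of box C/D snoRNPs, rose from 248, 211 and 216 CPM to 350, 330 and 343 CPM in Jurkat and from 246, 249 and 253 CPM to 577, 571 and 567 CPM in JinB8. The number of positive members was 24 with limma-voom on quantile-normalised values, 8 with all 20 libraries in the fit and 14 to 21 under the other alternatives, left-out libraries aside.

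Of 18 snoRNA host genes, NOP56 among them, 14 had a positive difference and none a negative one, with a median of 0.35, and 9 were positive with all 20 libraries in the fit. For this list and the next pair the shares of all genes were again 10.1% and 15.5%. GAS5 fell from 389, 324 and 333 CPM to 290, 269 and 292 CPM in Jurkat and rose from 277, 264 and 280 CPM to 353, 345 and 353 CPM in JinB8, a log2 difference of 0.61. Of 50 cytosolic ribosomal protein genes 21 had a positive difference and none a negative one (7 to 32 across the alternatives). Of 20 cytosolic tRNA synthetases 10 had a positive difference and none a negative one. CARS1 (1.2), TARS1 (1.07), GARS1 (0.97), YARS1 (0.96) and MARS1 (0.95) were the largest, and WARS1 rose by 1.39 on the log2 scale in each line.

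Components of T cell receptor signalling were mixed: 5 of 20 had a positive and 8 a negative difference, against 10.1% and 15.5% of all genes, and the positive count fell to 2 under an alternative. CD28, the costimulatory receptor that the anti-CD28 antibody binds, rose from 27.0, 24.8 and 27.1 CPM to 54.2, 61.2 and 52.7 CPM in Jurkat. In JinB8 CD28 was far higher throughout, at 237, 234 and 231 CPM at 1 h and 215, 216 and 219 CPM at 6 h, and its log2 difference was -1.24 (adjusted p = 2.14e-08). The CD28 difference was already -1.13 by 3 h, or -1.03 without the library that stood apart. THEMIS, an adaptor of the receptor, had -1.13 and PTPRC (CD45) -0.98. TRBC1 and CD3D, chains of the receptor, had 0.65 and 0.44, and the kinase ZAP70 had 0.66, a call lost in 6 of the alternatives.

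Of 12 genes that the study followed individually and that could be tested, 2 had a line difference, MYCN and MCL1, a share below the 25.7% of all genes. MYC rose in Jurkat from 22.3, 26.6 and 31.1 CPM to 82.8, 82.2 and 83.6 CPM and in JinB8 from 50.5, 54.9 and 47.8 CPM to 176, 180 and 174 CPM. The JinB8 level was the higher at both times and the log2 difference was 0.11 (adjusted p = 0.45). MYCN, at 0.916, 1.02 and 0.715 CPM in Jurkat at 1 h and 0.562, 0.548 and 0.787 CPM at 6 h, rose in JinB8 from 7.98, 8.98 and 7.87 CPM to 13.6, 12.1 and 13.6 CPM. Its log2 difference was 1.10 (adjusted p = 0.013), a call lost in 3 of the alternatives. MCL1, an inhibitor of apoptosis, fell in both lines, from 1358, 1283 and 921 CPM to 247, 265 and 236 CPM in Jurkat and from 506, 462 and 428 CPM to 198, 186 and 191 CPM in JinB8, with a log2 difference of 0.92. TNF (0.47), MYCL (0.45), CCR9 (0.19), PREX1 (0.10), CD69 (-0.20), CD40LG (-0.31) and RAG1 (-0.46) did not pass the test, and TIGIT and MYCNOS were too low to be tested.

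The largest positive differences among genes above 1 CPM in each line were those of SDK2, FOSB, SLC7A11, ST20-MTHFS, SIK1, SLC6A9, CHAC1, NR4A1, PCK2 and FSTL1. SDK2, a cell adhesion protein of the immunoglobulin superfamily (chromosome 17, 73334384 to 73644445, minus strand), fell in Jurkat from 4.38, 5.44 and 3.91 CPM to 0.865, 0.999 and 0.669 CPM. In JinB8 it rose from 0.158, 0.367 and 0.121 CPM to 4.59, 3.93 and 4.59 CPM. The 2 lines exchanged places, and the log2 difference of 6.71 (SE 0.40, adjusted p = 5.06e-09) rests on a JinB8 level at 1 h of a few reads per library. SIK1 shares reads with a near-identical copy and ST20-MTHFS is a readthrough transcript, so their values are uncertain.

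The largest negative differences were those of MYT1, RGS6, HSP90B1, TUBAP13, CREB3L3, NTRK3, HEPACAM, LINC02405, CD27 and HSPA5. MYT1, a zinc finger factor, rose from 1.35, 2.35 and 2.4 CPM to 8.57, 7.77 and 6.72 CPM in Jurkat and fell from 4.98, 5.51 and 4.76 CPM to 2.52, 3.28 and 2.65 CPM in JinB8, a log2 difference of -2.81. CREB3L3, an ER-bound transcription factor, had -2.58 and CD27, a costimulatory receptor of the TNF receptor family, -2.35. Jurkat counts at 1 h were low for several of these genes, so their values rest on few reads. With CD3_CD28, CD3_CD28_TSP1 and TSP1 they were 4, 3 and 6 for RGS6 and 5, 11 and 9 for CREB3L3. HEPACAM had 4, 4 and 19, LINC02405 10, 10 and 9 and CD27 6, 24 and 22. TUBAP13 is a pseudogene whose reads may come from tubulin genes. By p-value the leading genes were SLC7A11, PSAT1, SLC3A2, SLC7A5 and STC2 on the positive side and HSP90B1, MANF, HSPA5, XBP1 and PDIA4 on the negative side.

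**Figure D5:**
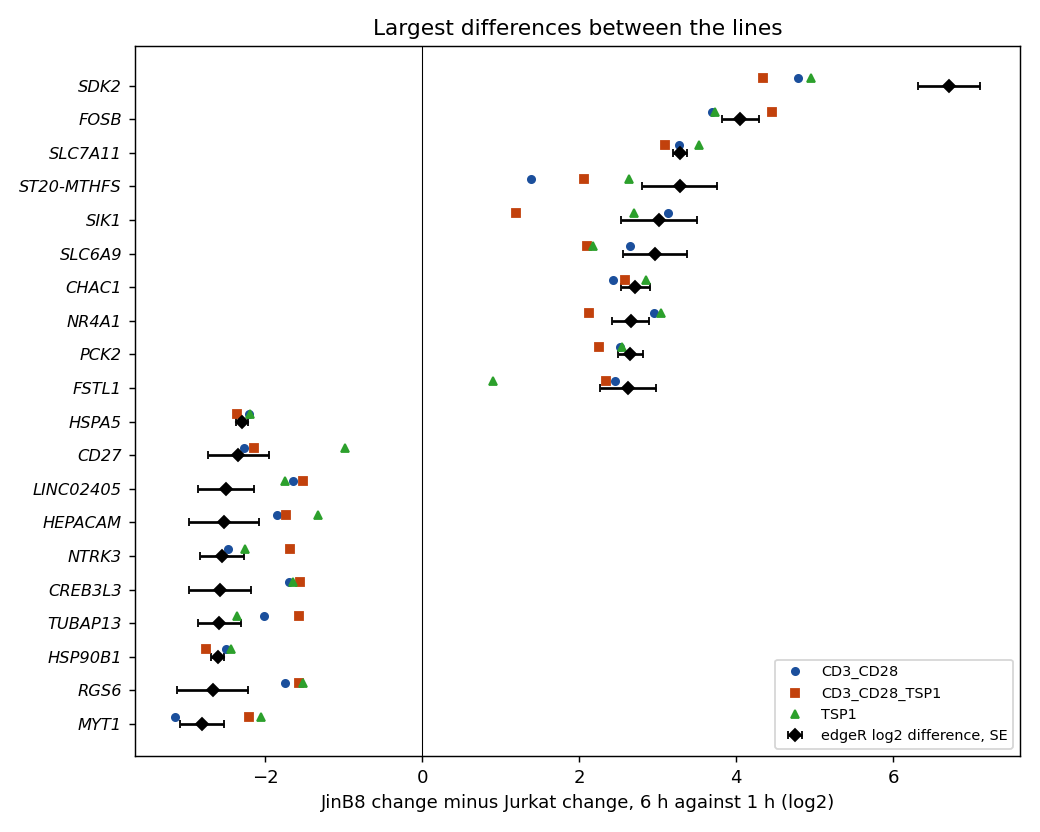
Log2 difference between the lines (x axis, JinB8 change minus Jurkat change from 1 to 6 h) for the 10 largest positive and 10 largest negative genes (y axis). Diamonds are the edgeR value with its standard error, and coloured symbols the difference in each treatment on log2(CPM + 0.5), which is smaller for genes of few counts; SDK2 has 6.71 by edgeR and 4.34 to 4.95 in the 3 treatments.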

How the data were processed

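RNA was sequenced in 20 libraries of 2 human cell lines. Per the labels and the study's methods, the authors' steps were adapter trimming (cutadapt 1.18), alignment to GRCh38, also called hg38, (STAR 2.4.2a) and estimation of counts per gene (RSEM 1.3.3, GENCODE 36). The deposited values are RSEM expected counts, estimated counts that split reads shared between genes (7.55% of values were not whole). They were rounded here. Strandedness of counting is not given in the sources used here, so overlapping antisense genes cannot be told apart. The authors' own analysis adjusted for a batch that the sources used here do not name, so a batch could not be tested. Another 2 columns of the table belong to no sample.

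The 12 libraries were fitted in edgeR 4.0.16 (R 4.3.3; quasi-likelihood, robust, TMM factors, genes kept by filterByExpr with a minimum count of 10), with a coefficient for each treatment in each line (6) and a 6 h term per line (2), leaving 4 residual degrees of freedom, moderated by a prior of 12.57. The tested value was the difference of the 6 h terms. The labels give treatments, not shared cultures, and do not say whether libraries came from separate cultures, so p-values measure only the spread between these libraries. The 3 h values came from an 18-library fit. P-values were adjusted by Benjamini and Hochberg over all genes of a fit and read at 0.05. CPM are counts over TMM-scaled totals of all 20 libraries, and differences per treatment used log2(CPM + 0.5). Alternatives used DESeq2 1.42.0, limma 3.58.1 (voom), other scalings, filters and samples, and each library left out. Gene positions came from the GENCODE annotation matched by identifier (17492 of the 17558 genes tested) and promoters from RefSeq.

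Genes were named by rule: above 1 CPM in each line, called, and of the same sign in all 3 treatments, the 10 largest in each direction, the 5 of smallest p in each direction and the 5 called in opposite directions, with members of the 33 gene lists. The comparison, its members and the lists were chosen with earlier results of these data known, so list counts are descriptions and no list was tested.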

Additional observations from a re-analysis of the deposited data

Results flagged for a closer look

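The change from 1 to 6 h differed between the lines by a test of the difference itself in 4507 genes, the change from 1 to 3 h in 634 genes and the change from 3 to 6 h in 1648 genes. Of 468 genes above 1 CPM in each line that had a line difference, of the same sign in all 3 treatments, and changed in opposite directions in the 2 lines, the 5 whose smaller change was largest are given here. SDK2 had a log2 difference of 6.71, SLC7A11 of 3.28, SLC6A9 of 2.965, HSPA1B of 2.38 and STC2 of 2.26. HSPA1B, an inducible cytosolic HSP70, stood in Jurkat at 624, 1203 and 953 CPM at 1 h and 405, 423 and 428 CPM at 6 h with CD3_CD28, CD3_CD28_TSP1 and TSP1. In JinB8 it rose from 139, 178 and 113 CPM to 338, 383 and 343 CPM. The HSPA1B call was lost with activated libraries only. HSPA1B is nearly identical to HSPA1A (2.19, a call lost in 5 of 21 alternatives), and reads may be divided wrongly between them.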

How the results depend on the processing

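The line difference from 1 to 6 h was called in 3102 genes by DESeq2, 4524 by limma-voom, 4452 with upper-quartile factors, 4300 with library totals, 4704 with no low-count filter and 4495 with a minimum of 1 CPM. It fell to 2573 with all 20 libraries in the fit and to 2968 with the 8 activated libraries only, which leaves fewer samples. Leaving out 1 library gave 3104 to 4615. Without the treatment as a block (pairing the libraries of one treatment across times, which are not stated to share a culture) 4286 genes were called, 562 from 1 to 3 h and 1626 from 3 to 6 h. The changes within Jurkat (8066 to 9701 genes; 8497 to 9607 with 1 library left out) and within JinB8 (8428 to 10067; 8339 to 10328 with 1 library left out) kept within 1.5 times of the reported counts.

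The 3 h counts moved more. From 1 to 3 h DESeq2 called 1114 genes, a table with no filter 1405, and leaving out 1 library gave 186 to 1061. The lowest counts followed loss of JinB8 CD3_CD28 at 1 h (186), Jurkat CD3_CD28_TSP1 at 3 h (187) or at 1 h (194), Jurkat TSP1 at 1 h (266) and JinB8 CD3_CD28 at 3 h (301); JinB8 TSP1 (369) and CD3_CD28_TSP1 (387) at 1 h and Jurkat CD3_CD28_TSP1 at 6 h (408) also lowered it by more than 1.5 times. The highest followed loss of JinB8 CD3_CD28_TSP1 at 3 h. From 3 to 6 h, an interval examined after the 3 h values had been seen, the range was 736 (without Jurkat CD3_CD28_TSP1 at 6 h) to 2486 (without JinB8 CD3_CD28_TSP1 at 3 h), with 864 to 964 after loss of Jurkat CD3_CD28_TSP1 at 3 h, Jurkat CD3_CD28 at 6 h or any JinB8 library at 6 h. Its split of 636 positive and 1012 negative was 993 and 841 with upper-quartile factors and 499 and 1489 with library totals. The cause was not tested.

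Of 235 named genes 168 kept direction and call throughout and 63 lost the call under some setting. Another 3 gained a call, MYC and CD69 in 2 settings each and RAG1 in 3. A change of sign was seen for 3, CD47, MYC and CD69, at values near 0. CD47 had -0.032 with library totals and -0.0033 to 0.060 with 1 library left out. MYC had -0.012 with activated libraries only and -0.0053 to 0.25 with 1 library left out, negative without Jurkat TSP1 at 1 h (-0.0041) or 6 h. CD69 had 0.0068 with activated libraries only and -0.58 to 0.0072 with 1 library left out, positive without Jurkat TSP1 at 1 h or 6 h (0.0066). Depth limits genes below about 1 CPM, such as SDK2 in JinB8 at 1 h.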

Other observations

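Of 28 interferon-stimulated genes tested 10 had a negative line difference and none a positive one, against 15.5% and 10.1% of all genes. A single positive member appeared without Jurkat CD3_CD28_TSP1 at 1 h, or without Jurkat CD3_CD28 or CD3_CD28_TSP1 at 6 h. IFIT1, an antiviral RNA-binding protein, stood at 3.90, 5.09 and 4.08 CPM in Jurkat at 1 h and 4.59, 5.19 and 5.27 CPM at 6 h, and fell in JinB8 from 3.52, 4.16 and 3.63 CPM to 2.03, 1.66 and 1.76 CPM. Its log2 difference was -1.30, and those of IFIT3 and OAS2 were -1.03 and -0.66. IRF9, part of the factor that drives these genes, fell in both lines and had -0.76.

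Of 25 genes of the sterol synthesis list 11 had a positive difference and 1 a negative one, against 10.1% and 15.5% of all genes, with 7 to 13 positive and 1 to 3 negative across the alternatives and left-out libraries. SQLE, squalene epoxidase, stood at 177, 184 and 172 CPM in Jurkat at 1 h and 193, 210 and 181 CPM at 6 h, and in JinB8 at 59.6, 56.6 and 56.7 CPM and then 116, 117 and 116 CPM. It rose in both lines, with a log2 difference of 0.84, and its level stayed the higher in Jurkat at both times.

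Glycolysis and hypoxia genes went both ways, 9 of 32 positive and 7 negative, against 10.1% and 15.5% of all genes. VEGFA, the angiogenic growth factor, fell from 118, 125 and 103 CPM to 49.1, 48.1 and 42.4 CPM in Jurkat and stood at 84.0, 86.8 and 81.6 CPM and then 80.3, 81.9 and 80.7 CPM in JinB8, a difference of 1.21. ADM had 2.33, while CA9, a carbonic anhydrase induced by hypoxia, had -1.78. Among 21 genes of the BCL2 family and cell death 7 were positive (again against 10.1%, and 4 by DESeq2 or with all 20 libraries). They included the BH3-only genes HRK (2.54), BBC3 (1.94) and PMAIP1 (0.68), and the inhibitor of apoptosis MCL1 (0.92). Of the list 4 were negative (against 15.5%), among them the inhibitor XIAP (-0.51), the BH3-only gene BMF (-0.85) and CASP8 (-0.37). Death-promoting and survival genes thus lay on both sides, and the list median was 0.13. HRK and BBC3 lay below about 6 CPM in every library.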
